A study of Equus caballus with 4 samples.

Results

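The replication machinery of equine satellite cells was examined through 46 listed genes that load, start, drive and feed DNA replication. A gene was taken as measured where a noncontrol probe of the horse array carried its symbol. This held for 42 of the 46 genes, with 75 probes, among 13350 named genes and 43603 probes on the array. The other 4 (*cdca7*, *orc1*, *pola1* and *prim2*) have probes that only the description column names, and they are described after the 42. Where a gene had several probes, the one with the highest mean log2 signal over both channels stood for it.

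Satellite cells are the muscle stem cells that divide, differentiate and fuse into new fibers, and gamma-oryzanol (GO) is a mixture of sterol and triterpene alcohol ferulates from rice bran oil. The cells came from the m. semitendinosus of 6-month-old colts, and the methods state that the culture with the best viability and fusion scores was chosen. GO at 125 nM was added after day 2 of differentiation for 24 h, and control cells received the vehicle alone, DMSO at 0.04 µl/ml, which GO-treated cells received too. Both were at day 3 of differentiation, in medium with 2% horse serum, when RNA was taken. Each of 4 arrays, all on 1 slide, took cRNA of GO-treated cells in Cy5 together with cRNA of control cells in Cy3, from samples with a RIN (RNA integrity number) of at least 9.2. The dyes were never exchanged, so dye bias of a probe and its response to GO cannot be told apart. The labels call the arrays biological replicates, while the text of the study does not say whether they are separate horses or cultures, so the p-values measure the spread between these 4 arrays, which may be technical.

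Replication starts where the origin recognition complex sits on DNA and, with CDC6 and CDT1, loads the ring-shaped MCM helicase. CDC45 and the GINS complex then switch the helicase on, primase and the polymerases copy the strands, and PCNA, a sliding clamp loaded by replication factor C, holds the polymerases in place. RPA coats unpaired DNA, FEN1 and LIG1 join the pieces of the lagging strand, and ribonucleotide reductase, thymidylate synthase and thymidine kinase supply nucleotides. Myoblasts leave the cell cycle as they differentiate, and many of these genes are known to be most active in dividing cells.

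Probes of 60 bases were used. The sequences of *cdc45* are shown because its brightest probe was past both thresholds given below, and those of *cdca7* were added. Each of these genes has a pair of probes that overlap on the same transcript, and they hold the largest differences among the listed genes tested. Capitals mark the 40 bases that the probes of a pair share, and all sequences are those of the array files, 5′ to 3′, with positions on EquCab1.
cdc45, brighter probe, chrUn:270995151-270995210, minus strand: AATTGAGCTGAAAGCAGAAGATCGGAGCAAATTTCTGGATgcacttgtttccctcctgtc
cdc45, dimmer probe, chrUn:270995171-270998036, minus strand: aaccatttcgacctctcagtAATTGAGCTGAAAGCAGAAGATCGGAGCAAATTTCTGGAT
cdca7, brighter probe, chr18:40768896-40769274, plus strand: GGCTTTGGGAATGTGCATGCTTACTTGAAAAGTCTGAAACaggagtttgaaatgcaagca
cdca7, dimmer probe, chr18:40768876-40769254, plus strand: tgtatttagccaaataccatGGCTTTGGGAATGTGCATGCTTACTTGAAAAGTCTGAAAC
The dimmer *cdc45* probe lies within 2866 bases of genome and each *cdca7* probe within 379, so the 60 bases of these probes are not contiguous in EquCab1, while the brighter *cdc45* probe lies within a stretch of 60 bases. The files assign the *cdc45* pair to transcript ENSECAT00000012250 and the *cdca7* pair to ENSECAT00000012017. The annotation of exons on EquCab1 was not used here.

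Of the 42 genes, *cdc45* fell in GO-treated cells, and no gene rose. Values are log2 ratios of GO-treated over control cells, so that a negative value is a lower signal after GO. The call needed an adjusted p up to 0.05 (limma, adjusted by Benjamini-Hochberg over 26832 probes tested) together with a 1.3-fold difference or more, which is 0.38 in size on the log2 scale. The control signal of all 42 genes exceeded the local background clearly (the scanner software's mark for well above background) on each array, and so did the GO signal of 41 of them, the exception being *pole* (3 arrays). Lower calls thus numbered 1 of 42, beside 5.37% of 9058 named genes tested, and higher calls 0 of 42, beside 3.33%. At an adjusted p of at most 0.05 without the fold change, 3 of the 42 were lower (9.28% of named genes) and 0 were higher (8.03%). In bulk RNA, fewer cells in S phase and less RNA of these genes per cell cannot be told apart.

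The small differences mostly had the same sign. The mean log2 ratio was below 0 for 38 of the 42 genes (90.5%), beside 49.3% of the named genes tested. Ratios were below 0 on all 4 arrays for 19 of the 42 genes, beside 1898 of 9058 named genes (21%). They were above 0 on all 4 for 0 of the 42, beside 1930 of 9058 (21.3%). The unadjusted p (limma) was at most 0.05 with a lower mean for 17 of the 42 genes, beside 1577 of 9058 named genes (17.4%). With a higher mean this held for 1 of the 42, *rpa3*, beside 1574 of 9058 (17.4%). The median of the 42 means was -0.17, with a range of -0.52 to 0.21, and the median over the 9058 named genes was 0.0030. The 95% confidence interval of 24 genes lay within a 1.3-fold change either way, that of 17 genes reached past a 1.3-fold fall, and that of 1 gene, *rpa3*, reached past a 1.3-fold rise.

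**Figure D1:**
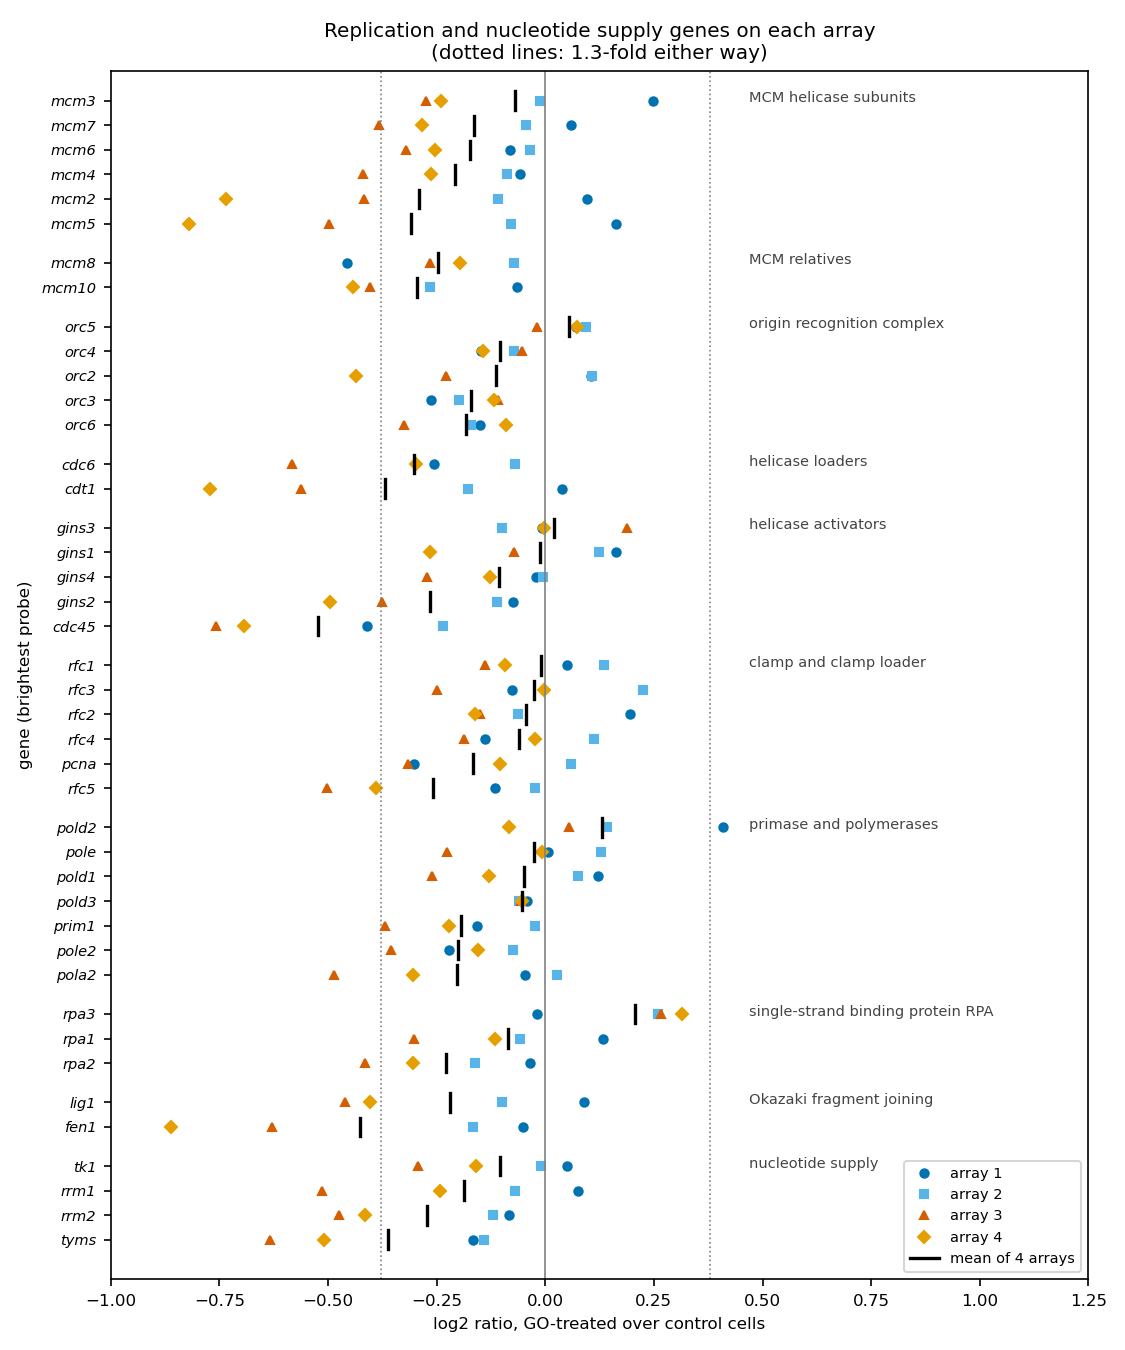
Log2 ratio (GO-treated over control) on each of 4 arrays (points) and their mean (black bars) for the 42 genes, grouped by role and drawn from the brightest probe of each gene, with dotted lines at a 1.3-fold change. The ratios of *cdc45* are below 0 on all 4 arrays, and for most genes arrays 3 and 4 lie to the left of arrays 1 and 2.

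CDC45 travels with the MCM ring and is needed for it to unwind DNA. The processed signal of *cdc45* in control cells was 1267, 1041, 1992 and 1716 on arrays 1 to 4, and in GO-treated cells it was 953, 884, 1178 and 1061. GO-treated cells were lower on every array, though the control signal of array 2 lay within the range of the GO-treated signals of all arrays. The log2 ratios were -0.41, -0.23, -0.76 and -0.69, a mean of -0.52 ± 0.24 (SD, n = 4 arrays) or a 1.44-fold fall, with an adjusted p of 0.0177 (Benjamini-Hochberg, limma) and a 95% interval of -0.76 to -0.29. The call was lost without array 3 (adjusted p = 0.0633), with no filter on dim probes (0.10), with a plain one-sample test (0.128) and with the channels not paired by array (0.322), all with Benjamini-Hochberg adjustment. The dimmer *cdc45* probe had ratios of -0.27, -0.13, -0.64 and -0.47, a mean of -0.38 and an adjusted p of 0.0378 (limma), just under the fold change threshold. It is no independent measure, since it shares 40 of its 60 bases with the brighter one.

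The GINS genes, whose 4 products form the partner complex of CDC45, lay nearer to 0. The mean log2 ratio was -0.26 for *gins2*, -0.11 for *gins4*, -0.01 for *gins1* and 0.02 for *gins3*, and 0 of the 4 passed the adjusted p. The median over the 5 helicase activators was -0.11.

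The 6 subunits of the MCM helicase ring had means between -0.31 (*mcm5*) and -0.07 (*mcm3*), all below 0, with a median of -0.19. No brightest probe of these 6 passed the adjusted p. *Mcm5* and *mcm2*, singled out after their values were seen, differed most between arrays among these 6. The ratios of *mcm5* were 0.16, -0.08, -0.50 and -0.82 (adjusted p = 0.207, limma), and those of *mcm2* were 0.10, -0.11, -0.42 and -0.73 (adjusted p = 0.169). Both genes were above 0 on array 1 and lowest on array 4. The 5 probes of *mcm2* had means of -0.34 to -0.29. *Mcm3* was also above 0 on array 1 (0.25) and at -0.01, -0.27 and -0.24 on arrays 2 to 4. The ratios of *mcm4* and *mcm6* were below 0 on every array, with means of -0.21 and -0.17, and *mcm7* had a mean of -0.16. The dimmer probe of *mcm6* did pass the adjusted p, with a mean of -0.30 (adjusted p = 0.0352, limma).

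MCM10, which is no part of the ring and helps to start the loaded helicase, passed the adjusted p but not the fold change. The signal of *mcm10* in control cells was 91.1, 72.4, 132 and 93.7 on arrays 1 to 4, and in GO-treated cells 87.1, 60.2, 99.8 and 69. Its ratios were -0.07, -0.27, -0.40 and -0.44, with a mean of -0.29 ± 0.17 (SD, n = 4), a 1.23-fold difference and an adjusted p of 0.0461 (Benjamini-Hochberg, limma). All 4 ratios were below 0, and that of array 1 was nearest to it. With normexp background correction the mean of this dim probe was -0.13 and its adjusted p 0.139 (limma). That setting adds an offset of 50 to both channels, which draws the ratios of dim probes toward 0. *Mcm8*, an MCM relative with a role in recombination repair, had a mean of -0.25 with its brighter probe (adjusted p = 0.0671). Its dimmer probe was past both thresholds, with ratios of -0.70, -0.30, -0.46 and -0.20, a mean of -0.41 and an adjusted p of 0.0284 (limma).

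The genes that mark and license origins were next. Of the origin recognition complex, *orc6*, *orc3*, *orc2* and *orc4* had means of -0.18, -0.17, -0.11 and -0.10, and *orc5* had a mean of 0.05. Of these 5 brightest probes, 0 passed the adjusted p. The dimmest probe of *orc6* did, with a mean of -0.25 (adjusted p = 0.0414, limma), while its remaining probe had -0.12 (adjusted p = 0.244). The helicase loaders lay lower, at -0.30 for *cdc6* (adjusted p = 0.0617) and -0.37 for *cdt1* (adjusted p = 0.103, limma). *Cdc6* was below 0 on every array, from -0.58 on array 3 to -0.07 on array 2. The dimmer probe of *cdc6* had a mean of -0.30 and an adjusted p of 0.0496 (limma). *Cdt1* spread more widely, with 0.04, -0.18, -0.56 and -0.77 on arrays 1 to 4, above 0 on array 1 and lowest on array 4.

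Clamp and clamp loader genes as a group, and polymerase and primase genes as another, lay near 0, each with a median of -0.05 and no brightest probe past the adjusted p. *Pcna* had a mean of -0.17, with 0.06 on array 2 and -0.10 to -0.32 on the others. Its other 2 probes had means of -0.33, with an adjusted p of 0.0351 and 0.0246 (limma). Of the 5 genes of replication factor C, *rfc1*, *rfc2*, *rfc3* and *rfc4* lay between -0.06 and -0.01, and *rfc5* at -0.26 (adjusted p = 0.101). The polymerase and primase genes *pola2*, *pole2* and *prim1* had means of -0.20, -0.20 and -0.19. The delta subunits *pold1* and *pold3* and the epsilon catalytic subunit *pole* lay between -0.05 and -0.02. The delta subunit *pold2* had a mean of 0.13, with 0.41 on array 1 and -0.08 on array 4.

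The 3 subunits of RPA did not share a sign. *Rpa2* had a mean of -0.23 (adjusted p = 0.0850, limma), with ratios below 0 on every array, and *rpa1* had a mean of -0.09. The dimmer probes of *rpa2* had means of -0.24 and -0.33, with an adjusted p of 0.0483 and 0.0266 (limma). The smallest subunit, *rpa3*, had a mean of 0.21 ± 0.15 (SD, n = 4), the highest of the 42 genes, with an adjusted p of 0.0993 (limma). Its ratios were -0.02, 0.26, 0.27 and 0.31, so that array 1 stood apart from the other 3. The other probe of *rpa3* had a mean of 0.19.

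FEN1, the nuclease that trims the flaps between pieces of the lagging strand, had the second largest difference. The signal of *fen1* in control cells was 250.4, 313, 329 and 353 on arrays 1 to 4, and in GO-treated cells 242, 279, 213 and 194. GO-treated cells were lower on every array, by little on arrays 1 and 2 and by more on arrays 3 and 4. The ratios were -0.05, -0.17, -0.63 and -0.86, a mean of -0.43 ± 0.38 (SD, n = 4) or 1.34-fold, and the adjusted p of 0.0792 (Benjamini-Hochberg, limma) was above the threshold. *Lig1*, the ligase that seals these pieces, had a mean of -0.22 (adjusted p = 0.177), with 0.09 on array 1 and -0.46 and -0.40 on arrays 3 and 4.

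Among the genes of nucleotide supply, *tyms* passed the adjusted p with its brightest probe only. Thymidylate synthase makes the thymidine nucleotide used for DNA. The signal of *tyms* in control cells was 2213, 1703, 3100 and 2539 on arrays 1 to 4, and in GO-treated cells 1972, 1546, 1999 and 1784. The ratios of -0.17, -0.14, -0.63 and -0.51 were all below 0 and lowest on array 3. Their mean was -0.36 ± 0.25 (SD, n = 4), a 1.29-fold difference under the fold change threshold, with an adjusted p of 0.0494 (Benjamini-Hochberg, limma). Without array 1, 2, 3 or 4 the adjusted p was 0.0603, 0.0787, 0.153 and 0.126 (limma). The dimmer probes of *tyms* had means of -0.38 and -0.31, with an adjusted p of 0.0566 and 0.0863 (limma). The subunits of ribonucleotide reductase, *rrm2* and *rrm1*, had means of -0.27 (adjusted p = 0.0716) and -0.19, and *tk1*, the thymidine kinase of the salvage pathway, had a mean of -0.10. All 4 were below 0, with a median of -0.23.

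The arrays differed from each other in these genes. The median log2 ratio of the 42 genes was -0.04, -0.06, -0.32 and -0.23 on arrays 1 to 4, while that of all named genes lay between -0.01 and 0.02. The number of genes below 0 was 25, 30, 39 and 40 of 42, or 59.5, 71.4, 92.9 and 95.2%, beside 46.7, 51.9, 47.7 and 51.7% of named genes. A 1.3-fold lower signal was reached by 2, 0, 16 and 12 of the 42 genes. Among the 9058 named genes it was reached by 752, 562, 882 and 1110 (8.3, 6.2, 9.74 and 12.3%). Array 3 held the lowest ratio of 26 genes (61.9%) and array 4 that of 10 (23.8%), beside 21.9 and 28.9% of all named genes. Without array 3 the median was -0.12, with 34 genes below 0, and without array 4 it was -0.14, with 36 below 0. The share of signals well above background in the GO channel was 67.0, 66.5, 62.0 and 57.4% on arrays 1 to 4. In the control channel it was 66.9, 68.9, 66.6 and 63.5%. Signal over background in the GO channel was 4.37, 3.42, 2.85 and 4.15, beside 4.22, 3.66, 3.79 and 3.98 in the control channel. What sets the arrays apart was not tested.

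The control channel differed more between the arrays than the GO channel did. Each gene's log2 signal was set against the median of its channel and then against the gene's own mean over all 8 channels. The median of the 42 genes was -0.14, -0.16, 0.35 and 0.29 in control cells on arrays 1 to 4, and -0.16, -0.18, 0.02 and 0.03 in GO-treated cells. Signals of these genes were thus highest in the control cells of arrays 3 and 4, and the GO-treated cells of those arrays lay below them.

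**Figure D2:**
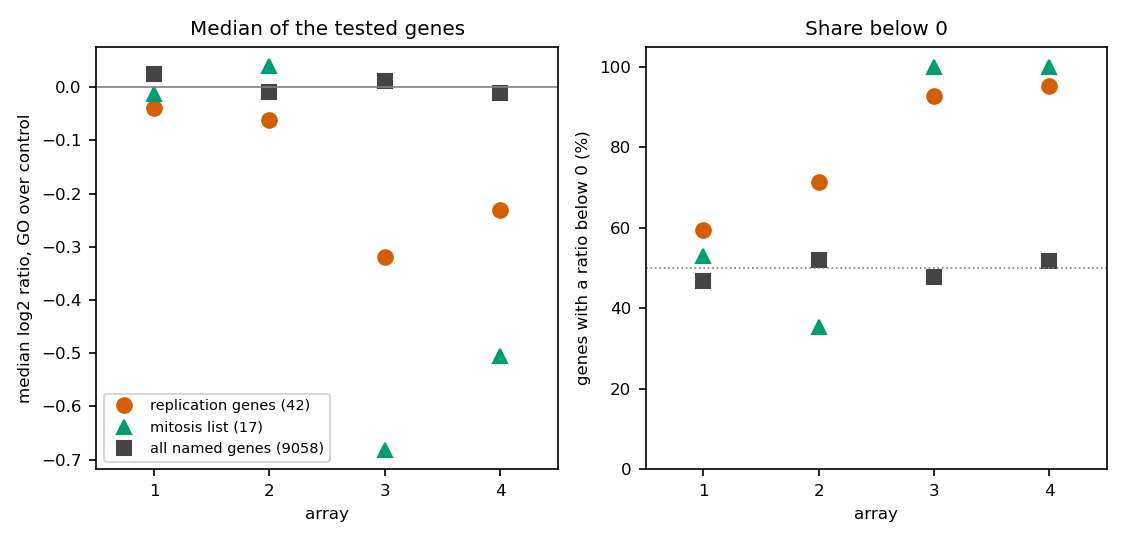
Median log2 ratio (left) and percent of genes with a ratio below 0 (right) on each of 4 arrays for the 42 replication genes, the 17 tested genes of the mitosis list and the 9058 named genes tested. The replication genes go from -0.04 on array 1 to -0.32 on array 3, while all named genes stay near 0.

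The probes of a gene mostly shared their sign. Of the 22 genes with more than 1 probe, 20 had every probe below 0 and 1 (*rpa3*) had every probe above 0, the exception being *gins3*, whose 5 probes had means of -0.09 to 0.02. Of all 75 probes, 69 had a mean below 0, beside 48.9% of 26832 probes tested on the array. An adjusted p of at most 0.05 (limma) was reached by 12 of the 75, all of them below 0. Among the 26832 probes, 2635 were lower and 2224 higher at that adjusted p. Past both thresholds were 2 probes, the brighter of *cdc45* and the dimmer of *mcm8*, beside 5.61% of all probes tested that were lower. Probes of 1 gene often overlap in sequence and are not replicates.

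The probes of *cdca7*, a zinc finger protein known as a target of MYC and E2F, gave different ratios. The signal of its dimmer probe in control cells was 27.8, 30.5, 32.7 and 23.1 on arrays 1 to 4, and in GO-treated cells 48.0, 50, 55.8 and 39.8. GO-treated cells were higher on every array, and the channels did not overlap. The ratios were 0.79, 0.71, 0.77 and 0.78, a mean of 0.76 ± 0.03 (SD, n = 4) or 1.70-fold, with an adjusted p of 0.00145 (Benjamini-Hochberg, limma). The study lists this probe among its changed transcripts on the same arrays, so its rise is not independent evidence.

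The brighter *cdca7* probe, which shares 40 of its 60 bases with the dimmer one, did not follow it. Its signal in control cells was 57.3, 66.2, 51.5 and 40.2, and in GO-treated cells 52.8, 66.4, 49.6 and 48.5. These overlapped, with ratios of -0.12, 0.0040, -0.05 and 0.27, a mean of 0.03 and an adjusted p of 0.844 (limma), and the 95% interval was -0.16 to 0.21. The ratio of the dimmer probe was higher on 4 of 4 arrays, by 0.74 ± 0.17 (SD, n = 4) on average, with p = 0.13 in an exact two-sided sign-flip permutation test, the smallest p that 4 arrays allow. With normexp background correction and loess, the dimmer probe had a mean of 0.17 and an adjusted p of 0.0618 (limma). That setting adds an offset of 50 to both channels, which draws the ratios of dim probes toward 0. With background-subtracted signals centred on the array's median and no offset, the mean was 0.64 and the adjusted p 0.00272 (limma). All of these signals are low, though well above background in both channels on all 4 arrays, and which of these probes follows the transcript was not tested.

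**Figure D3:**
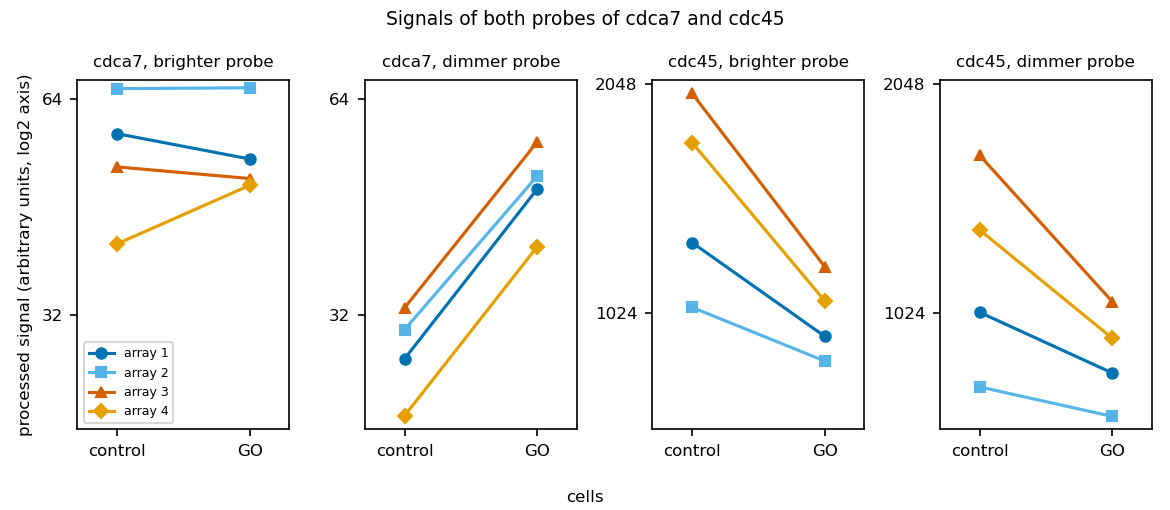
Processed signal (arbitrary units, log2 axis) in control and GO-treated cells for the brighter and the dimmer probe of *cdca7* and *cdc45*, with 1 line for each of 4 arrays. The dimmer *cdca7* probe rises on every array, the brighter one does not, and both *cdc45* probes fall on every array.

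Of the other genes that only the description names, *orc1*, the largest subunit of the origin recognition complex, had ratios of -0.21, -0.11, -0.39 and -0.30. All 4 were below 0, and the mean of -0.25 had an adjusted p of 0.0460 (limma) and was under the fold change threshold. *Prim2*, the large subunit of primase, had a mean of 0.10 (adjusted p = 0.315) and was above 0 on every array. The probe of *pola1*, the catalytic subunit of polymerase alpha, was not well above background in either channel on any array and was not tested.

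Other genes around the fork were read from lists. Of 17 tested fork and licensing factors, 1 was lower, beside 5.37% of named genes tested, and the median was -0.10. The lower gene was *atad5*, which takes PCNA off DNA, with a mean of -0.41 (adjusted p = 0.0180, limma). Its ratios were -0.59, -0.20, -0.49 and -0.36. Of 8 genes of chromatin assembly and maintenance methylation 0 were called, with a median of -0.12, and of 27 enzymes of nucleotide and one-carbon metabolism 0 were called, with a median of 0.03. The latter list had 12 genes below and 15 above 0, unlike the 4 nucleotide supply genes described above, though this difference was not tested.

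Of 23 tested regulators of the step from G1 to S phase, 2 were lower, beside 5.37% of named genes tested. None was higher, beside 3.33%, and the median was -0.07. The 2 lower genes were the D-type cyclins *ccnd2*, with a mean of -0.80 (adjusted p = 0.00288, limma), and *ccnd3*, with a mean of -0.49 (adjusted p = 0.0321). Of 17 tested genes of mitosis, 4 were lower, beside 5.37% of named genes. All 17 had a mean below 0, beside 49.3% of named genes, with a median of -0.23. The 4 were the kinetochore motor *cenpe* (-0.75), the spindle protein *nusap1* (-0.58) and the kinases *cdk1* (-0.49) and *aurka* (-0.40). Their adjusted p was 0.0293, 0.0253, 0.0479 and 0.0476 (limma), so that *cdk1* and *aurka* passed narrowly. The median of the mitosis list was -0.01, 0.04, -0.68 and -0.51 on arrays 1 to 4, the same arrays being low as for the replication genes.

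**Figure D4:**
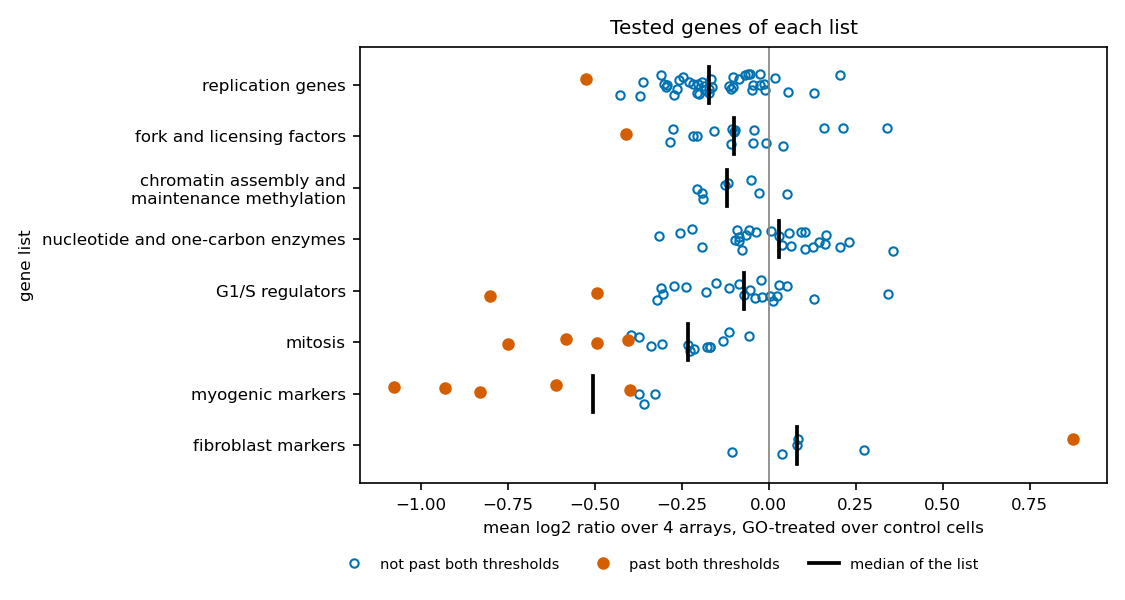
Mean log2 ratio (GO-treated over control) of 4 arrays for each tested gene of the 42 replication genes and of 7 other lists (points), with the median of each list (black bars); filled points are past both thresholds. The replication genes hold 1 such gene and the mitosis list 4.

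Markers of the cell types the culture could hold were read as well. Of 12 myogenic markers, 8 were found, all well above background in both channels and all with a mean below 0. Of these 8, 5 were lower, beside 5.37% of named genes tested. The 5 included *myh8* (-1.08), *myf5* (-0.93), *myh3* (-0.83) and *des* (-0.61). The summed signal of the 8 was 238099 to 339356 in control cells and 160382 to 228625 in GO-treated cells, without overlap. Of 8 fibroblast markers, 6 were tested and 1, *pdgfra*, was higher (0.87), beside 3.33% of named genes. The summed signals of the 7 found overlapped, at 160579 to 226796 in control and 167257 to 213760 in GO-treated cells. The part of these markers in the values of the replication genes was not tested. Among markers of other cells, 6 of 7 endothelial, 4 of 5 adipocyte and 3 of 10 leukocyte markers found were not well above background on any array in either channel, while 1, 0 and 5 of them were well above background on all 4 arrays in both channels. The summed leukocyte signal was 5501 to 6506 in control and 5954 to 6801 in GO-treated cells.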

How the data were processed

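Gene expression was measured with two-color horse arrays in equine satellite cells. The authors scanned the arrays with Feature Extraction (version 10.10.1.1 per the file headers, whereas the methods name another version). The deposited intensity values are background-subtracted, detrended and dye-normalized (linear and lowess) signals of each channel, and the deposited log10 ratios are Cy5 over Cy3. The deposited series table held the same ratios (180880 of 180880 values equal), and 0 columns were left without a sample.

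Ratios were converted to log2, 1417 control spots and all outlier spots were dropped, and spots of 1 probe were averaged. Probes well above background in 1 channel on all 4 arrays were tested against 0, two-sided, with limma (version 3.58.1; lmFit, eBayes) in R 4.3.3 with data.table (version 1.17.8), and Benjamini-Hochberg adjustment. The thresholds are those of the methods, which name GeneSpring and no test. At these thresholds the study reports far fewer changed transcripts than the probes called here, and its table of identified genes does not hold *cdc45*. The fits were tested on simulated data, drawn independently for each probe and array. That test does not cover probes that vary together on an array. Figures were drawn with matplotlib 3.10.9 in Python 3.11.15. The array ratio pairs the channels. Deviations from channel means correlated at 0.48 to 0.86 within an array and at -0.54 to 0.24 between arrays (26831 probes). The channels of an array share its spots and dye normalization, and deviations from a mean over the arrays lean to negative correlations between them. These values therefore cannot show whether the cultures were paired. The number of arrays limits the precision.

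Member genes and lists were chosen with earlier results of these data known. Values on each array were given, by rule, for *cdca7* and for members with an adjusted p of at most 0.05, and those of other members were picked after their values were seen. From other lists at most 4 genes past both thresholds were named. Sequences were shown by rule for members past both thresholds, with *cdca7* added. Positions were read from the files (EquCab1). Proteins and promoters were not used here. Alternatives changed the background correction, dye normalization, centring, filter, test, pairing, array weights, probe choice, fold threshold and names, or left out an array.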

Additional observations from a re-analysis of the deposited data

Results flagged for a closer look

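The log2 ratio of *rpa3* on array 1, -0.019, stood apart from the other 3 arrays, at 0.26 to 0.31, by more than Dixon's 95% critical value for 4 samples. It was the only gene of the 42 to do so, and chance alone sets about 1 in 20 groups apart.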

How the results depend on the processing

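The number of the 42 genes called lower was 1, and 0 with no filter on dim probes, 0 with the plain one-sample test and 3 with the adjusted p alone. The median log2 ratio stayed between -0.21 and -0.12 and 0 genes were called higher under every alternative run, and no gene's log2 ratio that was called turned its sign. Without the replicate block, that is without the pairing of the channels by array, 0 genes were called lower. Leaving out 1 array at a time gave 0 to 1 lower genes, with 0 without array 3. The alternative that names genes from probe descriptions was chosen after seeing the data and gave 1 lower gene of 45. Over all probes tested, 2399 were called (37.3% of them higher), against 1297 with normexp and loess, 908 with no filter (31.3% higher), 147 with the plain one-sample test (19.7% higher), 370 without the block (17.8% higher), 1566 without array 2 and 4859 with the adjusted p alone. The cause was not tested. The setting with no filter adjusts over 43603 probes, and leaving out an array leaves 3. With no filter, adjusted p-values (limma, Benjamini-Hochberg) did not all move the same way. That of *cdc45* rose from 0.0177 to 0.10, and that of *pold3* fell from 0.513 to 0.0618. With the plain one-sample test they were 0.128 and 0.0518. Dim probes (*mcm10*, *cdca7*) are limited by signal over background.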
